A study of Mus musculus and Homo sapiens with 47 samples.

Results

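Non-cycling cells that carried the transcript of Lgr5, the gene that marks stem cells at the base of the intestinal crypt, were described in droplet single-cell libraries of mouse intestine taken at days 12 and 7. A cell was taken when its barcode had at least 2500 unique molecular identifiers (UMIs, each standing for 1 captured RNA molecule), 500 or more genes, and no more than 20% of its UMIs from mitochondrial genes. It also had to hold at least 2 Lgr5 UMIs, and at most 1 UMI in all over 8 genes of dividing cells (Mki67, Top2a, Cdk1, Ccnb1, Ccna2, Ube2c, Plk1 and Aurkb). This gave 1833 cells at day 12 and 1078 at day 7, which is 2911 of the 8497 cells kept in these libraries and of the 11289 kept in all 3 single-cell libraries. They are called Lgr5 cells here. They were set beside the non-cycling cells of the same library with no Lgr5 UMI, called 0-Lgr5 cells, of which there were 902 at day 12 and 592 at day 7. The cells were thus selected on measured values, the UMIs of Lgr5 and of the 8 cell cycle genes, so these values are a description and no finding, and every other gene was measured in the same cells.

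The mice were labelled Eed F/F; Lgr5EGFP-IRES-CreERT on a mixed B6;129 background and were adult. Eed is a core subunit of Polycomb repressive complex 2 (PRC2). The Cre and the GFP sit at the Lgr5 locus, so recombination, sorting and the Lgr5 rule all follow the same gene. All 3 libraries share the floxed alleles and tamoxifen, which was given daily for 5 days in a row and every other day thereafter. Epithelium of the proximal intestine was dissociated with EDTA and TrypLE and GFP-positive stem cells were sorted, while the source field of the labels names villus cells. There was 1 library for each of days 7, 12 and 16. What day 0 was is not given in the labels, which name no separate animals either, and no single-cell library without the deletion was analysed here.

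Crypt base stem cells divide to renew the epithelium, and their daughters become absorptive enterocytes or secretory goblet, Paneth, enteroendocrine and tuft cells. Lgr5 is a receptor for R-spondins that strengthens the Wnt signal on which these cells depend, and it is itself a Wnt target gene. PRC2 methylates histone H3 at lysine 27 and holds developmental and lineage genes silent.

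With 1 library per day, no difference below has a replicate check, and no p-value is given because cells of a library are not replicates. The UMIs of a group's cells were added up per gene and scaled by the group's total to CPM, counts per 1000000 UMIs. Intervals are exact 95% intervals that cover counting error only, and a gene is counted as higher or lower when its CPM differed at least 2-fold. The 3 libraries held 40817192 to 46071956 UMIs. Lgr5 cells had a median of 7135 UMIs at day 12 and 6797 at day 7, and 0-Lgr5 cells had 6510.5 at day 12 and 6167.5 at day 7. Median mitochondrial shares were 6.06% at day 12 and 9.14% at day 7 in Lgr5 cells, and 6.05% at day 12 and 8.86% at day 7 in 0-Lgr5 cells. Depth and mitochondrial share were thus close between the groups of a day. Among kept cells the libraries of days 7 and 12 shared 4 barcodes, and among Lgr5 cells 0. Doublets were not removed.

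Eed was counted in Lgr5 cells of all 3 libraries, at 46.3 CPM at day 7, 23.1 CPM at day 12 and with 53 UMIs in 204 cells at day 16. In 0-Lgr5 cells Eed was at 41.2 CPM at day 7, 21.5 CPM at day 12 and 17.8 CPM at day 16. The reads are 3' tags and may lie outside the deleted part of the gene, so these levels do not check the knockout. Ezh2, the catalytic subunit of PRC2, was at 90.5 CPM in Lgr5 cells and 89.9 CPM in 0-Lgr5 cells at day 12, and at 86.0 CPM in Lgr5 cells and 85.2 CPM in 0-Lgr5 cells at day 7.

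Lgr5 cells were 50.9% of non-cycling cells at day 12 (49.2 to 52.5%) and 46.7% at day 7 (44.6 to 48.7%). In the day 16 library, which the rule did not use, the same limits held 204 cells, 15.9% of the non-cycling cells (13.9 to 18.0%). Because the chance of catching a Lgr5 UMI depends on depth, each cell was also thinned to 2500 UMIs. A Lgr5 UMI was then left in 43.7% of non-cycling cells at day 7, 45.7% at day 12 and 13.6% at day 16. The order of the days was the same, with day 16 far below the other days.

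Lgr5 cells held a median of 3 Lgr5 UMIs at both days, and at most 15 at day 12 and 11 at day 7. Just inside the threshold, cells with exactly 2 Lgr5 UMIs numbered 714 at day 12 and 439 at day 7, with Lgr5 at 266 CPM and 292 CPM. Just outside it, cells with exactly 1 numbered 867 at day 12 and 639 at day 7, with Lgr5 at 140.0 CPM and 147 CPM. Capture is sparse at this depth, so a cell with 0 or 1 Lgr5 UMIs is not shown to lack the transcript.

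**Figure D1:**
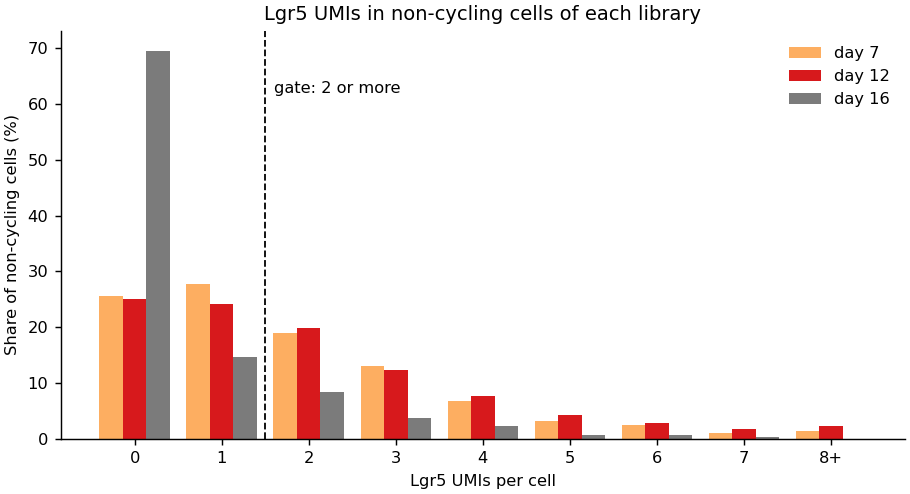
Share of non-cycling cells (percent, vertical axis) by the number of Lgr5 UMIs in the cell (horizontal axis, 8 or more pooled), with a bar for each of the libraries of days 7, 12 and 16. The dashed line marks the threshold of 2, right of which lay 46.7% of the cells at day 7, 50.9% at day 12 and 15.9% at day 16.

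Among all kept cells with at least 2 Lgr5 UMIs, 78.4% passed the cell cycle limit at day 12 (76.7 to 80.1%) and 60.8% at day 7 (58.5 to 63.1%). With each cell thinned to 2500 UMIs before both limits were applied, the shares were 92.9% of 707 cells at day 12 and 87.2% of 452 cells at day 7. The thinned shares lay closer together, and both settings had day 12 above day 7. Of the Lgr5 cells, 1495 at day 12 and 832 at day 7 held no UMI of the 8 genes. Cells with at least 2 Lgr5 UMIs and exactly 2 such UMIs, just outside the limit, numbered 97 at day 12 and 102 at day 7.

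Pcna, the sliding clamp of DNA replication, was at 95.9 CPM in Lgr5 cells with 0 cell cycle UMIs, 157 CPM with 1 and 203 CPM just outside with 2 at day 12. At day 7 it was at 86.0 CPM with 0, 129 CPM with 1 and 122 CPM with 2. Pcna thus stood in the order of these UMIs at day 12 and not at day 7. Lgr5 cells were also set beside the cycling cells with at least 2 Lgr5 UMIs, 504 at day 12 and 695 at day 7. Of 25 replication genes, 23 were at least 2-fold lower in Lgr5 cells at day 12 and 17 at day 7, with median log2 ratios of -1.91 and -1.28. All 15 mitosis genes outside the rule were at least 2-fold lower at both days. Over all genes compared outside the rule, 4.25% were at least 2-fold lower in this comparison at day 12 and 3.29% at day 7, and the medians were 0.09 and 0.06. The rule split these cells on mitosis genes, so these counts of mitosis and replication genes are a description. The median log2 ratio of 28 stem cell genes in the same comparison was 0.10 at day 12 and 0.26 at day 7. The cycling cells were deeper, with medians of 12253.5 UMIs at day 12 and 12163 UMIs at day 7.

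Few genes separated Lgr5 cells widely from 0-Lgr5 cells. Of 11017 genes compared, 7 were at least 2-fold higher at both days (0.0635%) and 94 at least 2-fold lower (0.853%). The rule fixed Lgr5 itself, and the other 6 were Ttr, Herc6, Gif and 3 genes without a descriptive name. The median log2 ratio over all genes was -0.01 at day 12 and 0.03 at day 7. Across these 11017 genes the ratios of days 12 and 7, taken in separate libraries with the same rule, had a Pearson correlation of 0.39. Lgr5, whose ratio the rule fixed at both days, is included, so this value is a description.

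The first gene by rank on the higher side was Ttr, which encodes transthyretin, a carrier of thyroxine and retinol. Ttr was at 63.5 CPM in Lgr5 cells and 24.1 CPM in 0-Lgr5 cells at day 12, and at 40.7 CPM in Lgr5 cells and 18.7 CPM in 0-Lgr5 cells at day 7. The ratios were 2.63 at day 12 (2.22 to 3.14) and 2.17 at day 7 (1.69 to 2.83). Ttr UMIs lay in 375 Lgr5 cells at day 12 and 204 at day 7, with at most 18 and 8 in a cell. At day 16 Ttr was at 167 CPM in Lgr5 cells and 104 CPM in 0-Lgr5 cells. Lgr5 cells thus held more Ttr in all 3 libraries.

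Slfn2, a Schlafen family gene known from T cell quiescence, was at 46.1 CPM in Lgr5 cells and 24.4 CPM in 0-Lgr5 cells at day 12, and at 57.2 CPM in Lgr5 cells and 31.5 CPM in 0-Lgr5 cells at day 7. Lbh, a transcriptional regulator that is a Wnt target in mammary epithelium, was at 85.8 CPM in Lgr5 cells and 38.0 CPM in 0-Lgr5 cells at day 12, and at 159 CPM in Lgr5 cells and 90.9 CPM in 0-Lgr5 cells at day 7. Fam13a was at 56.3 CPM in Lgr5 cells and 29.1 CPM in 0-Lgr5 cells at day 12, and at 85.9 CPM in Lgr5 cells and 50.0 CPM in 0-Lgr5 cells at day 7. The ratios of these 3 genes ran from 2.25 for Lbh at day 12 down to 1.72 for Fam13a at day 7.

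The start regions of Slfn2, Lbh and Fam13a are shown because these genes ranked next after Ttr and the RefSeq promoter table (build GRCm38.p6) holds them, along with 3 others of the 12 genes first by rank. Each line gives the 250 bases before the annotated start, 5′ to 3′ on the gene's strand. Slfn2 is at chr11:83064862-83065111 on the plus strand, Lbh at chr17:72918055-72918304 on the plus strand and Fam13a at chr6:59024503-59024752 on the minus strand. Capitals mark matches on either strand to CTTTGAT or CTTTGTT, cores bound by the Wnt effectors TCF and LEF, or to CAGCTG, an E-box of the kind bound by basic helix-loop-helix factors.
Slfn2: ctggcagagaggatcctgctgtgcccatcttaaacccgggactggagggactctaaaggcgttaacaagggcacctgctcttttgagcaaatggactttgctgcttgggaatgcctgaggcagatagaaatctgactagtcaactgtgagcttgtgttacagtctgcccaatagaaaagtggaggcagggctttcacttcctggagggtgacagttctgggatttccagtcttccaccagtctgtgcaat
Lbh: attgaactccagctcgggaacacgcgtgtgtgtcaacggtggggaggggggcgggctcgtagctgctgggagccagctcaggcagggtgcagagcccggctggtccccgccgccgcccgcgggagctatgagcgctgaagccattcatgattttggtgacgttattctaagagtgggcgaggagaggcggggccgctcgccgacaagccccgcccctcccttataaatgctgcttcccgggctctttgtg
Fam13a: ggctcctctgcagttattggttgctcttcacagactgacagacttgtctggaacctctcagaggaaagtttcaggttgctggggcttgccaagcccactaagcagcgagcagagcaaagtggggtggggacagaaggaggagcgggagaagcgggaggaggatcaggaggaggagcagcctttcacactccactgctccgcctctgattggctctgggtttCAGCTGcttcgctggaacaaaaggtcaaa
The match found was a CAGCTG in Fam13a, 29 to 24 bases before its start. Of 27025 promoter windows of the same length, 12.8% held CAGCTG, 3.23% held CTTTGAT and 4.99% held CTTTGTT. The TCF and LEF cores share their first letters and differ near the end.

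Secreted and surface signalling genes were among those next in rank. Pdgfa, a ligand of the platelet-derived growth factor receptor on mesenchymal cells, was at 482 CPM in Lgr5 cells and 296 CPM in 0-Lgr5 cells at day 12, and at 323 CPM in Lgr5 cells and 178 CPM in 0-Lgr5 cells at day 7. Smoc2, a matricellular protein used as a crypt stem cell marker, was at 867 CPM in Lgr5 cells and 534 CPM in 0-Lgr5 cells at day 12, and at 527 CPM in Lgr5 cells and 339 CPM in 0-Lgr5 cells at day 7. Nrn1, a membrane-anchored protein first known from neurons, was at 127 CPM in Lgr5 cells and 80.3 CPM in 0-Lgr5 cells at day 12, and at 60.9 CPM in Lgr5 cells and 31.2 CPM in 0-Lgr5 cells at day 7. For these 3 genes the ratios lay between 1.55 for Smoc2 at day 7 and 1.95 for Nrn1 at day 7. Fgf1, a fibroblast growth factor, was 1.66 times higher in Lgr5 cells at day 12 (1.30 to 2.13) and 1.88 times at day 7 (1.57 to 2.26).

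Genes of metabolism and transport held other ranks. Acot1, an acyl-CoA thioesterase, was 1.84 times higher in Lgr5 cells at day 12 (1.48 to 2.31), and its interval at day 7 was 1.28 to 1.77 times. Slc17a4, a solute carrier, was 1.63 times higher at day 12 and 1.92 times at day 7. Tifa, an adaptor of innate immune signalling, was 1.54 times higher at day 12 and 1.65 times at day 7. At day 16 the ratios of all 12 genes were above 1 too, from 1.22 to 3.27. The intervals of Fgf1 (0.406 to 3.08, 6 UMIs in Lgr5 cells) and Slfn2 (0.845 to 3.62, 12 UMIs) included 1. Those of Fam13a (0.993 to 1.57) and Slc17a4 (0.963 to 1.90) did as well. The day 16 sums rest on 204 Lgr5 cells, and 3.79% of 10396 genes were at least 2-fold higher and 7.9% lower.

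The stem cell list checks the name of these cells. Of its 30 genes, 28 beside Lgr5 had at least 20 UMIs in each library, and 24 of them were higher in Lgr5 cells at both days by any amount and 0 lower at both. Over all genes compared, 31.8% were higher at both days by any amount and 27.4% lower. At least 2-fold higher was 1 stem cell gene at day 12, where 0.581% of all genes were, and 0 at day 7, where 0.944% were. The median log2 ratio of the list was 0.36 at day 7, 0.27 at day 12 and 1.46 at day 16. The 0-Lgr5 cells of day 16 were another mix of cells. Of them 17.3% held at least 20 goblet marker UMIs (markers named below), against 0.887% at day 12 and 1.52% at day 7. At least 10 enterocyte marker UMIs were held by 7.49% at day 16, 1.11% at day 12 and 0.338% at day 7. The part of this mix in the day 16 ratios was not tested.

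Slc12a2, a cotransporter of sodium, potassium and chloride, was at 368 CPM in Lgr5 cells and 287 CPM in 0-Lgr5 cells at day 12, and at 1019 CPM in Lgr5 cells and 627 CPM in 0-Lgr5 cells at day 7. Gkn3, a gastrokine, was at 242 CPM in Lgr5 cells and 170.2 CPM in 0-Lgr5 cells at day 12, and at 397 CPM in Lgr5 cells and 249.6 CPM in 0-Lgr5 cells at day 7. Aqp4, a water channel, was 1.88 times higher in Lgr5 cells at day 12 and 1.48 times at day 7. These differences were of the same direction at both days and all under 2-fold. Barcodes with under 100 UMIs, taken as free RNA, carried Smoc2 at 558 CPM at day 12, against 329.9 CPM at day 7, and Gkn3 at 196 CPM at day 12, against 247 CPM at day 7. For comparison, Smoc2 in 0-Lgr5 cells was at 534 CPM at day 12 and 339 CPM at day 7. For both genes the 0-Lgr5 cells were thus nearer to the free RNA than the Lgr5 cells were. The part of free RNA in the levels of 0-Lgr5 cells was not tested.

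Ascl2, the factor that sustains the crypt stem cell programme, was at 48.7 CPM in Lgr5 cells and 47.0 CPM in 0-Lgr5 cells at day 12, and at 74.3 CPM in Lgr5 cells and 68.7 CPM in 0-Lgr5 cells at day 7. Axin2, a feedback inhibitor of Wnt, was at 190.1 CPM in Lgr5 cells and 184 CPM in 0-Lgr5 cells at day 12, and at 206 CPM in Lgr5 cells and 175 CPM in 0-Lgr5 cells at day 7. At day 16 Ascl2 was at 98.5 CPM in Lgr5 cells and 28.2 CPM in 0-Lgr5 cells, and Axin2 at 123 CPM in Lgr5 cells and 44.6 CPM in 0-Lgr5 cells. Ascl2 and Axin2 thus lay near equality at days 12 and 7 and higher in Lgr5 cells at day 16, where more of the 0-Lgr5 cells carried differentiated markers.

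**Figure D2:**
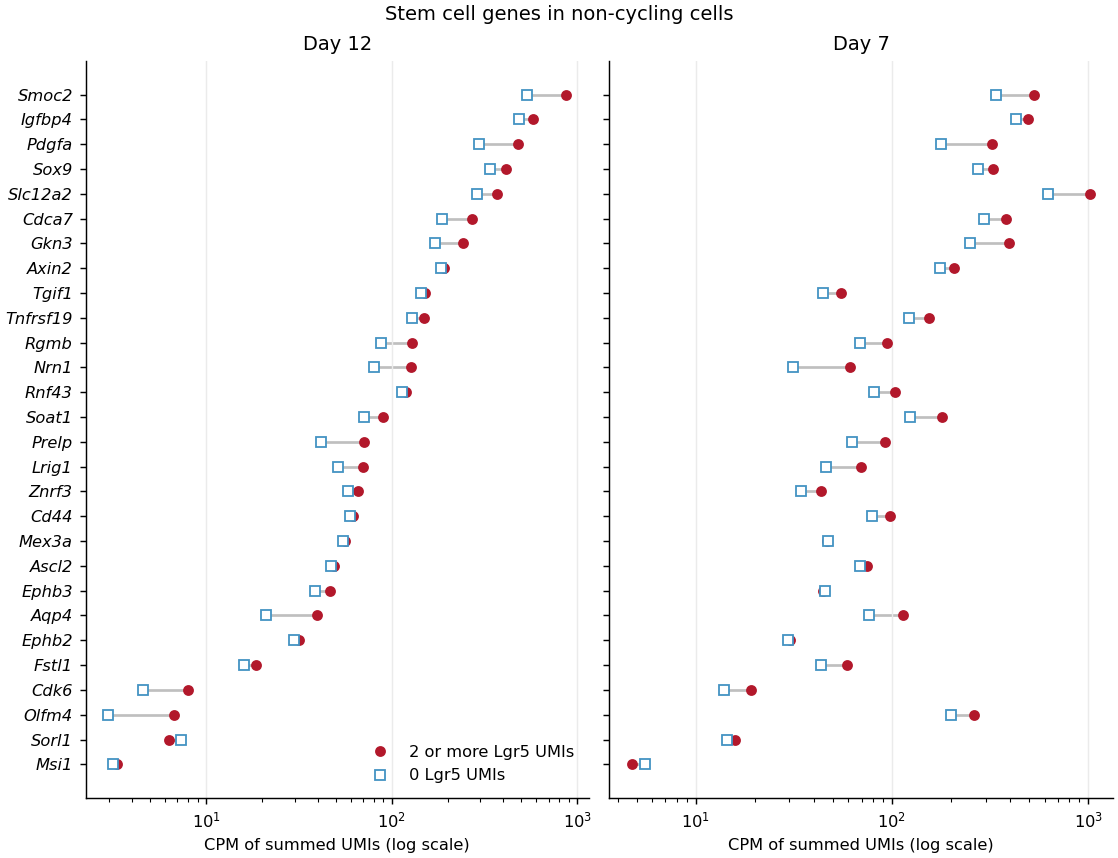
CPM of summed UMIs (horizontal axis, log scale) of 28 stem cell genes in Lgr5 cells (filled circles) and 0-Lgr5 cells (open squares) at day 12 (left) and day 7 (right), each point a sum over 1 group of 1 library. Most circles lie right of their square, as for Smoc2 at 867 CPM in Lgr5 cells and 534 CPM in 0-Lgr5 cells at day 12, and Ascl2 lies near equality.

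Some of these genes were graded inside the Lgr5 cells. Smoc2 was at 761 CPM with exactly 2 Lgr5 UMIs, 870.3 CPM with 3 to 4 and 1034 CPM with 5 or more at day 12, and at 483, 530.3 and 597 CPM at day 7. Lbh was at 75.6, 79.2 and 113 CPM at day 12 and at 127, 166 and 199.9 CPM at day 7. Both genes stood in the order of the Lgr5 UMI number at both days. Ascl2 showed no such order, with 52.1, 46.5 and 47.2 CPM at day 12 and 80.4, 70.2 and 71.9 CPM at day 7. S100a6, a calcium-binding protein, ran the other way, with 2415, 2124 and 1692 CPM at day 12 and 181, 141 and 134 CPM at day 7. Cells with 5 or more Lgr5 UMIs were deeper than cells with exactly 2, with medians of 7566 and 7019 UMIs at day 12 and 9083 and 6312 UMIs at day 7, and the part of depth in these orders was not tested.

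The Wnt target list of 16 genes had a median log2 ratio of 0.08 at day 12 and 0.11 at day 7. At least 2-fold lower at both days was 1 of them, the secreted Wnt inhibitor Wif1, where 0.853% of all genes were. The 10 genes of PRC2 had medians of 0.04 at day 12 and 0.03 at day 7, and the 20 genes of PRC1 had 0.01 and 0.18. Of 15 interferon response genes, 11 were higher in Lgr5 cells at both days by any amount and 0 lower, where 31.8% of all genes were higher and 27.4% lower, with medians of 0.26 and 0.42. Of 16 cholesterol synthesis genes, 11 were lower at both days by any amount and 0 higher, against the same shares of all genes, with medians of -0.25 and -0.33. The 5 genes of cyclin-dependent kinase inhibitors had medians of -0.27 at day 12 and -0.83 at day 7, and the 7 MHC class II genes had -0.05 and 0.46.

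The genes furthest below in Lgr5 cells belonged to differentiated cells. Fabp1, a fatty acid binding protein of enterocytes, was at 1.76 CPM in Lgr5 cells and 257 CPM in 0-Lgr5 cells at day 12, and at 3.29 CPM in Lgr5 cells and 173 CPM in 0-Lgr5 cells at day 7. Apoa1, an apolipoprotein that enterocytes secrete, was at 0.986 CPM in Lgr5 cells and 203 CPM in 0-Lgr5 cells at day 12, and at 1.71 CPM in Lgr5 cells and 73.4 CPM in 0-Lgr5 cells at day 7. Zg16, a goblet cell lectin, was at 3.66 CPM in Lgr5 cells and 1121 CPM in 0-Lgr5 cells at day 12, and at 2.44 CPM in Lgr5 cells and 68.4 CPM in 0-Lgr5 cells at day 7. The 12 genes first by rank on this side were Apoa4, Clca3, Fabp1, Apoa1, Rbp2, Zg16, Fcgbp, Apoc2, Fabp2, Muc2, Tff3 and Guca2b, which are genes of enterocytes and goblet cells.

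These sums rested on few cells. In 0-Lgr5 cells of day 12 the 7160 UMIs of Zg16 came from 28 cells, with 3362 in a single cell. The 1639 UMIs of Fabp1 came from 33 cells at day 12, and the 694 of day 7 from 9 cells with 478 in a single cell. Over the goblet markers Muc2, Fcgbp, Clca1, Spdef and Zg16 the summed level was 41.1 CPM in Lgr5 cells and 1583 CPM in 0-Lgr5 cells at day 12, and 51.5 CPM in Lgr5 cells and 256 CPM in 0-Lgr5 cells at day 7. Cells with at least 20 UMIs over them numbered 2 of 1833 Lgr5 cells and 8 of 902 0-Lgr5 cells at day 12, and 3 of 1078 and 9 of 592 at day 7. Such cells were few in every group.

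Cells with at least 10 UMIs over the enterocyte markers Alpi, Apoa1, Apoa4, Sis and Anpep numbered 0 of 1833 Lgr5 cells at day 12, which allows a share of up to 0.164%, and 0 of 1078 at day 7, which allows up to 0.278%. Limits for a count of 0 are those of 3 counts, and the exact upper limits were 0.201% and 0.342%. They numbered 10 of 902 0-Lgr5 cells at day 12 and 2 of 592 at day 7. The summed level of these 5 markers was 52.3 CPM in Lgr5 cells and 361 CPM in 0-Lgr5 cells at day 12, and 41.8 CPM in Lgr5 cells and 144 CPM in 0-Lgr5 cells at day 7, with 1 marker at 0 in Lgr5 cells of each day. Of all kept cells with at least 10 enterocyte marker UMIs, 1 of 13 held at least 2 Lgr5 UMIs at day 12, at a median depth of 17005 UMIs, and 0 of 3 at day 7. Barcodes with under 100 UMIs, taken as free RNA, averaged 7.25 UMIs at day 12 and 5.59 at day 7, with Lgr5 at 197 CPM and 132 CPM.

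Secretory cells of the other kinds were rare too. Cells with at least 5 tuft marker UMIs numbered 4 Lgr5 cells and 11 0-Lgr5 cells at day 12, and 5 and 8 at day 7. Cells with at least 20 enteroendocrine marker UMIs numbered 5 Lgr5 cells and 3 0-Lgr5 cells at day 12, and 7 and 16 at day 7. Cells with at least 200 UMIs over the Paneth markers Lyz1, Defa24, Mmp7, Mptx2 and Ang4 numbered 7 Lgr5 cells and 6 0-Lgr5 cells at day 12, and 13 and 20 at day 7. Immune markers were near 0, with 7 UMIs over Ptprc, Cd3e, Cd79a and Csf1r in Lgr5 cells of day 12 and 1 at day 7, and 3 of the 4 genes at 0 at each day.

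The comparison was repeated without every cell with more than 2 UMIs over the tuft, enteroendocrine and goblet markers, at least 200 over the Paneth markers or at least 10 over the enterocyte markers. The Paneth and enterocyte limits were added after the values were seen. This left 1749 Lgr5 cells and 805 0-Lgr5 cells at day 12, and 1019 and 494 at day 7. Fewer genes reached 20 UMIs in each library. The median log2 ratio of the 12 enterocyte genes compared was then 0.03 at day 12 and -0.02 at day 7, where that of 18 had been -1.72 and -0.69 with all cells. Of these 12 genes 3, Rbp2, Fabp1 and Fabp2, were at least 2-fold lower at day 12, with ratios of 0.103, 0.169 and 0.386, and 0 at day 7. With all cells, 1.96% of all genes were at least 2-fold lower at day 12 and 3.06% at day 7. The median of 10 goblet genes was 0.32 and 0.18, where that of 19 had been -1.68 and -1.23. The medians with and without the marked cells are over different genes, since Apoa4 and Zg16 among others left the comparison. How far the change in the medians comes from the genes that left was not tested. Muc2, Fcgbp, Zg16, Apoa1 and Apoa4 were among the markers used to remove cells, so the removal acts on their levels by its construction. Genes at least 2-fold lower at both days numbered 23 of 10718 (0.215%), and 12 of these were among the 94 found with all cells. On the higher side all 12 genes first by rank still had ratios above 1 at both days, from 1.31 to 2.45, and the stem cell list had medians of 0.21 and 0.23.

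**Figure D3:**
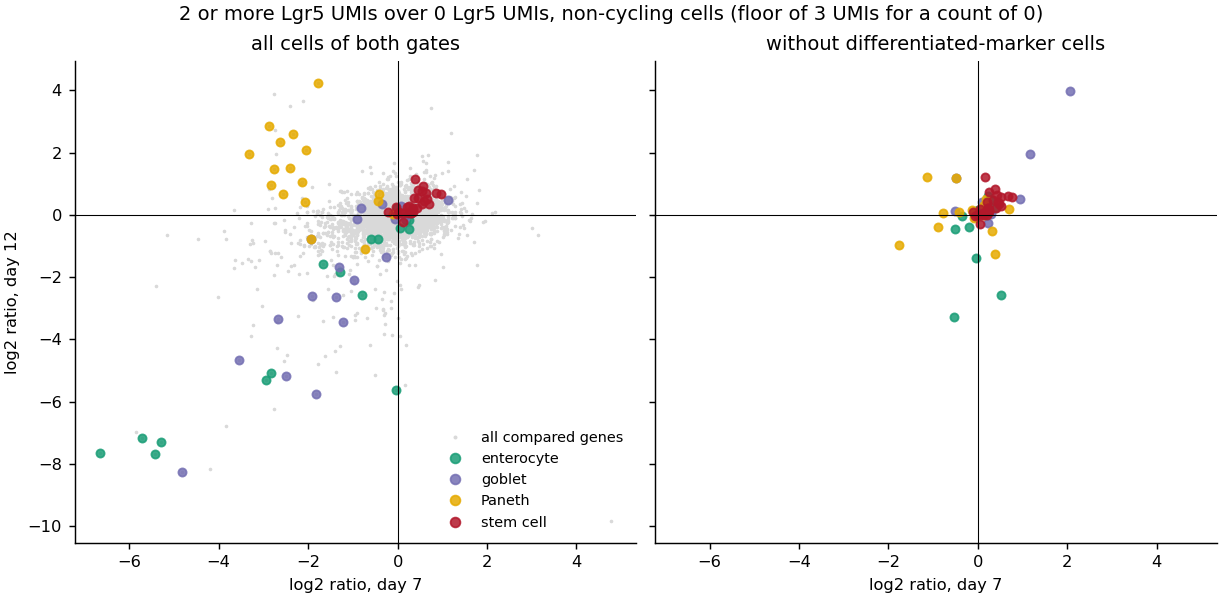
Log2 ratio of CPM in Lgr5 cells over 0-Lgr5 cells at day 7 (horizontal axis) and day 12 (vertical axis), each point a gene, with all cells (left, other compared genes in grey) and without cells carrying differentiated markers (right, compared genes of the 4 lists). Enterocyte and goblet genes reach far below 0 at both days on the left. On the right 3 of the 12 enterocyte genes remaining are at least 2-fold lower at day 12 and 0 at day 7. Most Paneth genes lie above 0 at day 12 and below it at day 7 on the left. Most of the 28 stem cell genes lie above 0 in both panels.

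The 23 genes lower in Lgr5 cells without the marked cells included transcription factors and signalling genes. The values in this paragraph and the next leave out the marked cells unless stated, and the genes were chosen after their values were seen. Sox17, a transcription factor of endoderm and endothelium, was at 20.5 CPM in Lgr5 cells and 45.6 CPM in 0-Lgr5 cells at day 12, and at 12.6 CPM in Lgr5 cells and 46.4 CPM in 0-Lgr5 cells at day 7. It was 2.23 times lower at day 12 (1.87 to 2.65) and 3.69 times at day 7 (2.84 to 4.82). Irx5, a homeobox gene, was at 30.9 CPM in Lgr5 cells and 65.3 CPM in 0-Lgr5 cells at day 12, and at 7.72 CPM in Lgr5 cells and 17.3 CPM in 0-Lgr5 cells at day 7. Msx1, another homeobox gene, was 2.06 times lower at day 12 (1.52 to 2.78) and 3.73 times at day 7 (2.53 to 5.55).

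Among the signalling genes, Wif1, the Wnt inhibitor, was at 48.4 CPM in Lgr5 cells and 101 CPM in 0-Lgr5 cells at day 12, and at 6.15 CPM in Lgr5 cells and 16.7 CPM in 0-Lgr5 cells at day 7. Ihh, the hedgehog ligand of the gut epithelium, was 3.07 times lower in Lgr5 cells at day 12 (2.00 to 4.74) and 2.66 times at day 7 (1.48 to 4.82). Ptn, the growth factor pleiotrophin, was 2.29 times lower at day 12 (1.85 to 2.83) and 3.94 times at day 7 (2.46 to 6.42). Tgfb2, a TGF beta ligand, and Lgals3, a galectin, were lower as well. Of the 23 genes 11 had at least 20 UMIs in Lgr5 cells of each day, so the others rest on low counts. With all cells Sox17, Wif1, Ihh, Tgfb2 and Lgals3 were also at least 2-fold lower at both days, and Irx5, Msx1 and Ptn just missed that limit at 1 day.

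The 250 bases before the starts of Ihh, Msx1 and Wif1 are shown because they let the CG content of these starts be read, and PRC2 is known to act at promoters rich in CG dinucleotides. The sequences are from RefSeq, build GRCm38.p6, 5′ to 3′ on the gene's strand, with each CG in capitals. Ihh is at chr1:74951673-74951922 on the minus strand, Msx1 at chr5:37824586-37824835 on the minus strand and Wif1 at chr10:121033754-121034003 on the plus strand.
Ihh: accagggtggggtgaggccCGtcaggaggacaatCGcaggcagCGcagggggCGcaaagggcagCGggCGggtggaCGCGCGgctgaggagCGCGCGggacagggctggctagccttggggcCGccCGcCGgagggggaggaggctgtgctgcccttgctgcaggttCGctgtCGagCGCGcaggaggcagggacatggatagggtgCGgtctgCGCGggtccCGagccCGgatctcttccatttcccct
Msx1: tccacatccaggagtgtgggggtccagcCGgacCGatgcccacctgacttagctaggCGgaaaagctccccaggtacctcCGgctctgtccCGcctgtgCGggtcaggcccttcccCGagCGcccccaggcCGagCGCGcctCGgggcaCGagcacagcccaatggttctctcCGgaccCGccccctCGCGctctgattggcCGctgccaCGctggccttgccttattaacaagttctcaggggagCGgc
Wif1: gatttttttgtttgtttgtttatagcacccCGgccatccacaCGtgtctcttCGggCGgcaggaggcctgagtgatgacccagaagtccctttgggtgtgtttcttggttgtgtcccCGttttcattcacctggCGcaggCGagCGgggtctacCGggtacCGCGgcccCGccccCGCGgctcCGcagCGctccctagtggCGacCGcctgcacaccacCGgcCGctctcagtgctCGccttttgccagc
The windows held 24 CG in Ihh, 20 in Msx1 and 21 in Wif1, which were chosen after values were seen. Of the other lower genes named above, Lgals3 held 13, Tgfb2 8 and Ptn 5. The median over 27025 promoters, not limited to the genes compared, was 6. Of the 23 genes the table held 16, with a median of 15 and a range of 0 to 24. The 6 genes in the table among the 12 first by rank on the higher side had a median of 9, with 2 in Slfn2, 21 in Lbh and 5 in Fam13a. No histone mark was read at these starts here. Both groups come from the same libraries, which share the floxed alleles and tamoxifen, and the part of PRC2 in these differences was not tested.

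From here on the values again include all cells of both groups unless stated. The next 3 genes were chosen after their values were seen. S100a6, which was graded by Lgr5 UMIs, was at 2133 CPM in Lgr5 cells and 3097 CPM in 0-Lgr5 cells at day 12, and at 154 CPM in Lgr5 cells and 455 CPM in 0-Lgr5 cells at day 7. Cdkn1c, which encodes the cyclin-dependent kinase inhibitor p57, was at 467 CPM in Lgr5 cells and 551 CPM in 0-Lgr5 cells at day 12, and at 46.9 CPM in Lgr5 cells and 118 CPM in 0-Lgr5 cells at day 7. Vim, the intermediate filament protein vimentin, was at 858 CPM in Lgr5 cells and 853 CPM in 0-Lgr5 cells at day 12, and at 103 CPM in Lgr5 cells and 249 CPM in 0-Lgr5 cells at day 7. S100a6 was lower in Lgr5 cells at both days, the values of the groups were close at day 12 for Cdkn1c and Vim, and the difference between the days was not tested.

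Cdkn1a, which encodes the inhibitor p21, was at 62.4 CPM in Lgr5 cells and 99.6 CPM in 0-Lgr5 cells at day 12, and at 29.9 CPM in Lgr5 cells and 85.7 CPM in 0-Lgr5 cells at day 7. Cdkn2a, a well known target of Polycomb repression, had 0 UMIs in 1078 Lgr5 cells at day 7, which allows a share of up to 0.278% of cells with a captured UMI and sets no limit on cells expressing the gene, 10 UMIs in 6 of 1833 at day 12 and 7 UMIs in 204 at day 16. In 0-Lgr5 cells it had 0 UMIs at day 7, 23 at day 12 and 612 at day 16. Cdkn2a was thus near the limit of detection in Lgr5 cells of days 7 and 12.

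Between the days, Lgr5 cells differed in more genes than they did from 0-Lgr5 cells. Of 11914 genes compared, 1229 were at least 2-fold higher at day 12 than at day 7 (10.3%) and 522 lower (4.38%). Against 0-Lgr5 cells, 0.581% of genes were higher and 1.96% lower at day 12, and 0.944% higher and 3.06% lower at day 7. The median log2 ratio of day 12 over day 7 was 0.12 over all genes, so a gene at that value stood level with the rest. In 0-Lgr5 cells, which come from the same libraries, 9.77% of genes were higher and 3.55% lower at day 12. Each day is 1 library, so day and library cannot be told apart.

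Olfm4, a secreted glycoprotein used as a marker of crypt base stem cells, was at 262 CPM at day 7, 6.69 CPM at day 12 and 1151 CPM at day 16 in Lgr5 cells. In 0-Lgr5 cells Olfm4 was at 200.3 CPM at day 7, 2.97 CPM at day 12 and 251 CPM at day 16. After thinning to 2500 UMIs, an Olfm4 UMI was left in 31.7% of Lgr5 cells at day 7 (29.0 to 34.6%), in 1.09% at day 12 (0.668 to 1.68%) and in 86.3% at day 16. The day 12 library was the lowest of the 3 in both groups, and in Lgr5 cells its level was 39.2-fold below that of day 7.

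The other stem cell genes did not follow Olfm4 as a group. Of 29 compared, Lgr5 included, 2 were at least 2-fold higher and 7 lower at day 12, with a median log2 ratio of -0.05. Over all genes compared, 10.3% were higher and 4.38% lower. Slc12a2 was 2.77-fold lower at day 12, at 368 CPM against 1019 CPM at day 7, while Smoc2 was 1.64 times higher. Lgr5 itself stood at 454 CPM at day 12 and 431 CPM at day 7, a level that the rule sets in part.

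The largest excesses at day 12 came from genes with few UMIs at day 7, which could pass the filter on low counts through day 12 alone. H19, an imprinted noncoding RNA, was at 96.2 CPM in 347 cells at day 12 and 3.41 CPM in 11 cells at day 7. Gas1, a surface protein that modulates hedgehog signalling, was at 28.6 CPM in 276 cells at day 12 and 0.731 CPM in 4 cells at day 7. Aldh1a2, an enzyme of retinoic acid synthesis, was at 21.1 CPM in 185 cells at day 12 and 0.731 CPM in 4 cells at day 7. The fold of H19 was 28.2 (19.4 to 42.6) and that of Gas1 39.1 (17.8 to 107). Of the 28 H19 UMIs of day 7, 12 lay in a single cell. Over the alternative settings the fold of H19 ran from 19.7 to 66.3, the highest without the cells carrying tuft, enteroendocrine or goblet markers, and that of Gas1 from 13.2 to 51.4.

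Mdk, the growth factor midkine, was at 42.5 CPM at day 12, against 1.58 CPM at day 7. Cckar, a receptor for cholecystokinin, had 27.6 CPM at day 12, against 1.22 CPM at day 7. The vesicle release gene Rims2 was likewise higher. Bpifb5, Npy and Prss56 were also among the first 10 by rank. Npy, which encodes neuropeptide Y, was at 23.0 CPM at day 12 and 0.609 CPM at day 7 in Lgr5 cells, and at 66.9 CPM and 6.74 CPM in 0-Lgr5 cells. The 596 UMIs of Prss56 at day 12 came from 63 cells and the 551 of Bpifb5 from 114. At day 16 the genes named here had few or no UMIs in the 204 Lgr5 cells, with Mdk highest at 1.02 CPM.

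**Figure D4:**
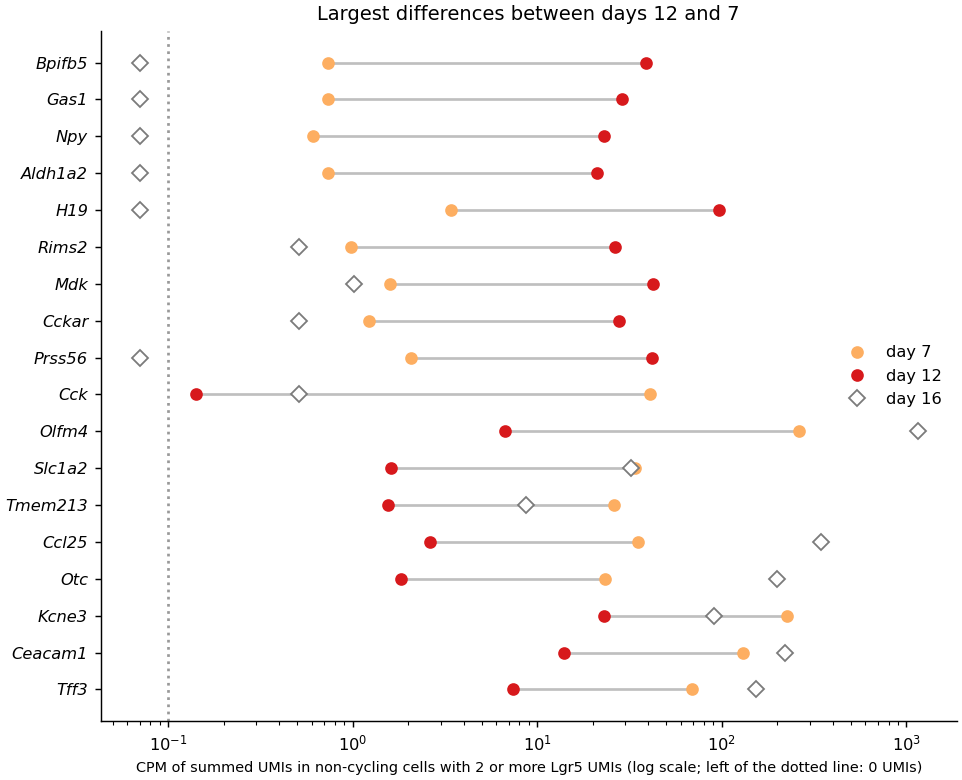
CPM of summed UMIs (horizontal axis, log scale) in Lgr5 cells of day 7 (orange circles), day 12 (red circles) and day 16 (open diamonds) for named genes among the 10 with the largest excess (upper rows) and the 10 with the largest deficit (lower rows) at day 12 over day 7, with 0 UMIs drawn left of the dotted line. H19 lies at 3.41 CPM at day 7 and 96.2 CPM at day 12. For Olfm4 the day 12 point at 6.69 CPM lies below both other days.

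The genes furthest below at day 12, beside Olfm4, included transporters, channels and surface proteins. Slc1a2, a glutamate transporter, was at 1.62 CPM in 22 cells at day 12 and 33.9 CPM in 221 cells at day 7. Kcne3, a potassium channel subunit, was at 23.0 CPM at day 12 and 226 CPM at day 7. Ceacam1, a cell adhesion molecule, was at 13.9 CPM at day 12 and 131 CPM at day 7. Otc, a urea cycle enzyme, and Ccl25, a chemokine of the small intestine, showed the same direction. At day 16 Slc1a2 was at 32.1 CPM, Kcne3 at 90.8 CPM, Ceacam1 at 221 CPM, Otc at 199 CPM and Ccl25 at 345 CPM, each above its day 12 level.

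Other deficits rested on few cells. Of 335 Cck UMIs in Lgr5 cells of day 7, 261 lay in a single cell. Tff3 and Tmem213 were also among the first 10 by rank. Tff3, a goblet cell peptide, had 568 UMIs in 53 cells at day 7.

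Among abundant transcripts, chosen after their values were seen, S100a6 was 13.8 times higher at day 12 (13.1 to 14.7), at 2133 CPM against 154 CPM at day 7. Vim was 8.34 times higher and Cdkn1c 9.95 times. Wfdc18, a secreted protein with a whey acidic protein domain, was at 792 CPM at day 12 and 58.7 CPM at day 7. In 0-Lgr5 cells S100a6 was 6.81 times higher at day 12, Vim 3.43 times and Cdkn1c 4.69 times. These genes thus differed between the days in the same direction in both groups. Pkm, the pyruvate kinase of glycolysis, was at 28.6 CPM at day 7, 456 CPM at day 12 and 189 CPM at day 16. At day 16 S100a6 was at 2.55 CPM, Vim at 1.53 CPM and Wfdc18 at 1.02 CPM in Lgr5 cells.

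Of 17 Wnt target genes, 5 were at least 2-fold higher at day 12 and 0 lower, where 10.3% of all genes were higher and 4.38% lower. The median log2 ratio of this list was 0.36 in Lgr5 cells and 0.40 in 0-Lgr5 cells. Notum, a secreted enzyme that inactivates Wnt ligands, was at 105 CPM at day 7, 672 CPM at day 12 and 1.02 CPM at day 16. Nkd1, an inhibitor of the Wnt transducer Dishevelled, was at 293 CPM at day 7, 854 CPM at day 12 and 15.8 CPM at day 16. Both genes were highest at day 12 and lowest at day 16. Of 13 regenerative and fetal-like genes, 6 were higher and 2 lower, against the same shares of all genes. Their median was 0.91 in Lgr5 cells and 1.01 in 0-Lgr5 cells. Clu, a marker of revival stem cells, was at 300.3 CPM at day 7, 1072 CPM at day 12 and 2.55 CPM at day 16.

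Of 7 MHC class II genes, 5 were at least 2-fold lower at day 12 and 0 higher. Over all genes 10.3% were higher and 4.38% lower, shares that also stand beside the other lists of this paragraph. The MHC class II median log2 ratio was -1.40 in Lgr5 cells and -0.89 in 0-Lgr5 cells. Cd74, the invariant chain, was at 606 CPM at day 12, against 1014 CPM at day 7. Of 11 absorptive progenitor and antimicrobial genes, 0 were at least 2-fold higher and 4 lower, with a median of -0.88 in Lgr5 cells and 0.40 in 0-Lgr5 cells. At day 12 their median log2 ratio of Lgr5 cells over 0-Lgr5 cells was -0.97 with all cells and -0.02 without the marked cells. The difference between the groups at day 12 thus rested on the marked cells. Among these genes Reg3b, an antimicrobial lectin, had 1949 CPM at day 12, against 7614 CPM at day 7. Of 23 immediate early and stress genes, which also respond to tissue dissociation, 9 were higher at day 12 and 1 lower, with a median of 0.77 in Lgr5 cells and 0.82 in 0-Lgr5 cells. Of 16 cholesterol synthesis genes, 4 were higher and 0 lower, with a median of 0.79 in Lgr5 cells and 0.70 in 0-Lgr5 cells. The part of dissociation stress in the day differences was not tested.

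The day 12 transcripts were not spread evenly over the Lgr5 cells. After thinning, an S100a6 UMI was left in 1173 Lgr5 cells at day 12 (64.0%) and in 113 at day 7 (10.5%), and the cells were split on it after the values were seen. Vim was found in 61.5% of cells with an S100a6 UMI and 39.4% of cells without one at day 12, and in 35.4% with and 8.81% without at day 7. Cdkn1c was found in 56.8% with and 28.3% without at day 12, and in 27.4% with and 5.18% without at day 7. Both genes were more frequent in the cells with an S100a6 UMI, at day 7 as well, where such cells were few.

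Reg3b ran the other way, in 30.3% of cells with an S100a6 UMI and 56.4% of cells without one at day 12, and in 56.6% with and 81.2% without at day 7. Olfm4 at day 7 was found in 5.31% with (1.97 to 11.2%) and 34.8% without (31.8 to 37.9%). Lgr5 itself was found in 72.0% with and 71.1% without at day 12, and in 68.1% with and 68.9% without at day 7. Lgr5 was thus caught about as often on both sides of the split. The rule took all these cells for at least 2 Lgr5 UMIs, so it sets these shares in part and they are a description. The split is a threshold on a sparse count and not a cell type, since 223 cells at day 12 and 58 at day 7 held exactly 1 S100a6 UMI after thinning. Barcodes with under 100 UMIs carried S100a6 at 1820 CPM at day 12, against 207 CPM at day 7. The part of free RNA in these shares was not tested.

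**Figure D5:**
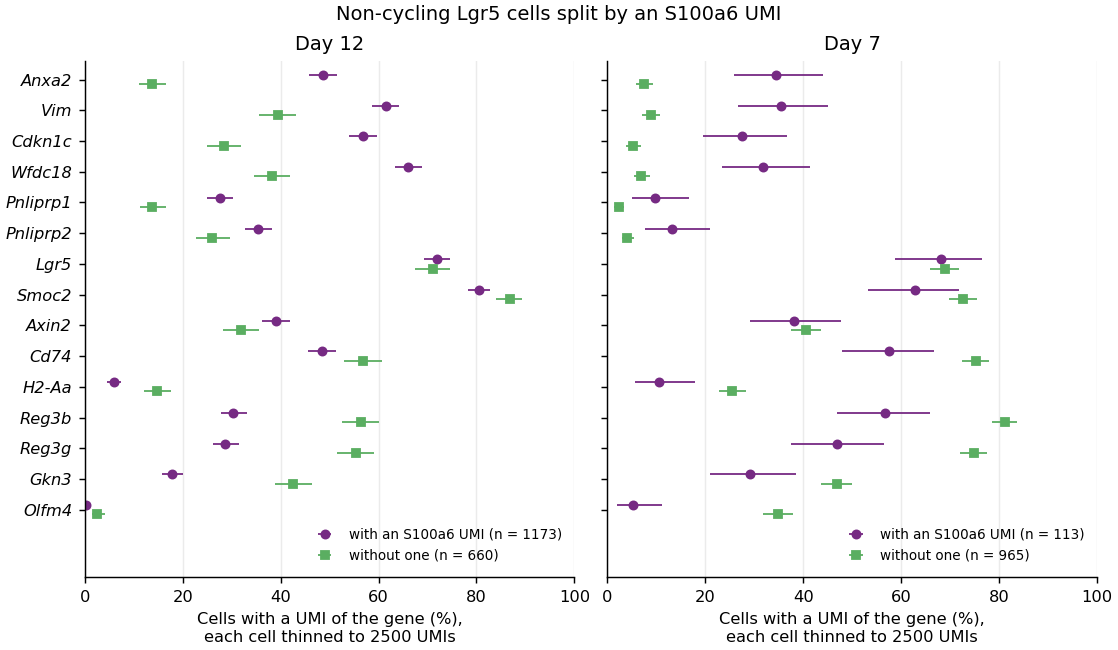
Share of Lgr5 cells with a UMI of each gene (percent, horizontal axis, cells thinned to 2500 UMIs) for cells with (circles) and without (squares) an S100a6 UMI at day 12 (left) and day 7 (right), with exact 95% intervals for counting error. Vim, Cdkn1c and Wfdc18 lie higher in cells with an S100a6 UMI at both days, and Reg3b and Gkn3 lie lower. For Lgr5, on which the rule chose all these cells, the intervals overlap.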

How the data were processed

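The deposited files of the 3 single-cell libraries hold raw UMI counts per gene and barcode for 24052 genes, unfiltered, made with Cell Ranger 3.0.2 and build mm9 per the submitters' processing notes. Per the labels' protocols, libraries were made with 10x Chromium 3' chemistry. From these counts, barcodes were kept at 2500 UMIs, 500 genes and at most 20% mitochondrial UMIs, and UMIs were summed per library and group and scaled to CPM. Genes with at least 20 UMIs over both groups of a comparison in each library were compared. Ratios have exact conditional binomial 95% intervals and shares have exact Clopper-Pearson intervals, both for counting error only. For a count of 0 the limit given is that of 3 counts. A group with 0 UMIs was set to 3 counts for its ratio. For shares of cells, each cell was thinned to 2500 UMIs with a fixed seed.

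With 1 library per day no test was run. The cells, the 29 gene lists and the comparisons were chosen with earlier results of these data known. Genes were named by rank: the 12 most extreme genes in each direction against 0-Lgr5 cells, by the smaller of the ratios of both days, and the 10 most extreme in each direction between days, with at least 20 CPM in the higher group and without ribosomal, mitochondrial and clone names. Beside these come up to 6 members per list, and Lgr5, Ascl2, Olfm4, Smoc2, Axin2, Eed, Ezh2 and Cdkn2a. Other genes are said to be chosen after their values were seen. Alternatives changed the scaling, weighting, thinning, filters, fold and cell limits. The calculation was checked on simulated data. Python 3.11.15, NumPy 2.4.6, SciPy 1.17.1, pandas 2.3.3 and matplotlib 3.10.9 were used. Genes with near-identical copies, such as Lyz1, could have lost or shared reads in counting. Some genes that the rank rule names are not reported here.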

Additional observations from a re-analysis of the deposited data

Results flagged for a closer look

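The Paneth cell list lay on opposite sides of equality at the 2 days. Its median log2 ratio of Lgr5 cells over 0-Lgr5 cells was 1.05 at day 12 and -2.15 at day 7 over 17 genes, and the difference between the days was not tested. The sums rest on few cells, since cells with at least 200 Paneth marker UMIs numbered 7 of 1833 Lgr5 cells and 6 of 902 0-Lgr5 cells at day 12, and 13 of 1078 Lgr5 cells and 20 of 592 0-Lgr5 cells at day 7. Without the cells that carry differentiated markers, the medians were 0.08 at day 12 and -0.10 at day 7 over 14 genes.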

How the results depend on the processing

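No paired analysis was possible because each day has 1 library and no result comes from a test. With cells thinned to 2500 UMIs before all limits, Lgr5 cells numbered 657 at day 12 and 394 at day 7, and the genes at least 2-fold lower numbered 58 against 0-Lgr5 cells and 330 between days. A minimum of 3 Lgr5 UMIs left 1119 cells at day 12 and 639 at day 7, a minimum of 1 gave 1717 at day 7, and a limit of 10% mitochondrial UMIs left 703 at day 7. Against 0-Lgr5 cells, genes higher at both days numbered 24 with no filter on low counts, 3 with at least 100 UMIs, 64 at a fold of 1.5, 4 with 0 cell cycle UMIs, 11 with at least 5000 UMIs per cell, 12 at 10% mitochondrial UMIs, 13 without secretory-marked cells and 12 without all marked cells. Genes lower at both days numbered 244 with no filter, 29 with at least 100 UMIs, 222 at a fold of 1.5, 50 without secretory-marked cells and 23 without all marked cells. Between days, 711 genes were higher and 263 lower with at least 100 UMIs, 2362 higher and 1061 lower at a fold of 1.5, and 822 lower with no filter.

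Signs turned in genes and lists of differentiated cells, here as log2 ratios of Lgr5 cells over 0-Lgr5 cells. Zg16 at day 7 was 2.87 with 0 cell cycle UMIs. At 10% mitochondrial UMIs, day 7 values were 1.02 for Fabp1, 2.27 for Apoa1 and 0.41 for Rbp2, and the enterocyte list was 0.020 at day 12. The tuft list at day 12 was 0.079 with at least 100 UMIs. Without secretory-marked cells, Clca3 was 1.58 and Muc2 0.58 at day 12, Fcgbp 0.35 and Tff3 0.10 at day 7, and the lists were 0.10 for tuft, 0.037 for enteroendocrine and 0.30 for goblet at day 12, and 0.10 for goblet and 0.11 for Paneth at day 7. Without all marked cells, Clca3 was 1.53 and Muc2 0.42 at day 12, and Fabp1 0.51, Apoa1 0.14, Fcgbp 0.76, Tff3 0.24 and Guca2b 0.17 at day 7. The lists were then 0.053 for tuft, 0.11 for enteroendocrine, 0.32 for goblet and 0.032 for enterocyte at day 12, and 0.18 for goblet at day 7. The enteroendocrine list between days was 0.62 without secretory-marked cells and 0.84 without all marked cells. Muc2, Fcgbp and Apoa1 were among the markers used to remove cells, so the removal acts on their levels by its construction. Not every value turned. Without all marked cells, Muc2 at day 7 was -4.05, where it had been -2.50 with all cells. The enteroendocrine list at day 7 was then -1.83, where it had been -2.28. For the other settings the cause was not tested. Of the named genes, 506 of 521 alternative values against 0-Lgr5 cells and 218 of 218 between days had the sign of the reported value. Among the values that kept their sign, 106 against 0-Lgr5 cells and 35 between days lay outside the counting interval of the reported value. All alternatives use the same libraries, so they are no replicate check.

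Depth limits the low genes: 0 UMIs allow up to 0.278% of Lgr5 cells with a captured UMI at day 7 and 0.164% at day 12, and set no limit on cells expressing a gene. Animals, days and libraries cannot be told apart.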
